A study of Homo sapiens with 6 samples.

Results

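The Hippo pathway genes described here were the 10 rows of the deposited expression tables named YAP1, WWTR1, TEAD1, TEAD2, TEAD3, LATS1, LATS2, CYR61, CTGF and AMOTL2, out of 26255 genes in all. They were chosen by name, with no measured value in the rule, but with earlier results of these data known. All 10 were found in every sample under these symbols (CYR61 and CTGF are now also called CCN1 and CCN2). RNA was sequenced from 22RV1 cells, a human castration-resistant prostate cancer (CRPC) cell line grown in RPMI medium with 10% fetal bovine serum and treated for 24 h with the vehicle DMSO (3 samples) or with 10 nM bruceantin (BCT, 3 samples), a plant-derived quassinoid. All samples were of this single line. The labels do not say whether the 3 samples of a group came from separate cultures, so the p-values measure the spread between these samples, which may be technical.

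YAP1 and WWTR1 (the gene of TAZ) encode transcriptional coactivators that do not bind DNA themselves. In the nucleus they bind the TEAD factors, which recognise a short DNA motif and switch on genes such as CTGF, CYR61 and AMOTL2. When the Hippo kinase cascade is active, LATS1 and LATS2 phosphorylate YAP and TAZ, which are then held in the cytoplasm or degraded. LATS2 and AMOTL2 are themselves known targets of YAP and TEAD and also restrain YAP, which makes them arms of a negative feedback loop. In the normal prostate, YAP is best known from basal cells, and the pathway has been studied in CRPC growth. Transcript levels do not show where the YAP protein sits in the cell or whether it is phosphorylated.

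RefSeq promoter windows (GRCh38.p14, 250 bases before to 50 bases after an annotated start) were at hand for 8 of the 10 genes, in 12 windows, and for neither CYR61 nor TEAD1. The core TEAD motif GGAATG, searched on both strands, occurred in 4 of these windows, 1 each of YAP1, LATS2, CTGF and AMOTL2, against 14.0% of all 35116 windows. The sequences below are shown because they hold these matches, which capitals mark, and all are written 5′ to 3′ on the strand of the gene. The CTGF stretch (chr6:131951373-131951547, minus strand, from -175 to -1 relative to the start) holds the motif 3 times, a count reached or passed in 45 windows, or 0.128% of all. The AMOTL2 stretch (chr3:134374471-134374556, minus strand) holds it once in the reverse orientation, at -69 to -64. The YAP1 stretch (chr11:102110245-102110330, plus strand) holds it at -162 to -157. In LATS2 (chr13:21061560-21061589, minus strand) it lies just past the start, at 10 to 15.
CTGF: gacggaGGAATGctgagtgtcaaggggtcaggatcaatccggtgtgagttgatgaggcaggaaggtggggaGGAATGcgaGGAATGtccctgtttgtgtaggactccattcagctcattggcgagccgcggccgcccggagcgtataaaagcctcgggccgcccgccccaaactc
AMOTL2: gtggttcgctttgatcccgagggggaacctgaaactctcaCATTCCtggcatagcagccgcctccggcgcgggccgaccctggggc
YAP1: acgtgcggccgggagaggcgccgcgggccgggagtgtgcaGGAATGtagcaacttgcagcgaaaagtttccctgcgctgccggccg
LATS2: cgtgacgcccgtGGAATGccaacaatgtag
The AP-1 motif TGANTCA was found once among the windows of these genes, in window 2 of LATS1, and in 7.71% of all windows. The CREB/ATF motif TGACGTCA (1.85% of all windows) and the CArG box bound by SRF (1.29%) had no match in the 12 windows. A match of letters is not a binding site, and no binding was measured.

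To examine how BCT affected these genes, the 3 BCT samples were compared with the 3 DMSO samples. The target genes AMOTL2, CYR61 and CTGF and the kinases LATS2 and LATS1 rose with BCT, by 2.17 to 3.42 times, whereas the DNA-binding factor TEAD2 fell to 0.31 times its DMSO level. YAP1 and TEAD1 were higher, and WWTR1 and TEAD3 lower, by less than the fold change threshold. Values are FPKM, sequenced fragments scaled to transcript length and to the size of the library, as deposited. Fold changes were fitted with limma on log2(FPKM + 0.1), a scale on which changes of low genes are understated, in the 12729 genes whose mean reached 1 FPKM. Calls needed a log2 fold change beyond 0.85 in either direction and a Benjamini-Hochberg adjusted p below 0.05. All 10 genes passed the filter in each sample taken alone, the lowest value being 1.94 FPKM. Of the 10 genes, 5 were called higher, 1 was called lower and 4 were not called, while 13.9% of all genes tested were called higher, 17.8% lower and 31.6% in either direction. The adjusted p alone was below 0.05 for all 10 genes, as it was for 82.1% of all genes tested. The 2 groups of samples were separate in all 10 genes, as they were in 85.3% of all genes tested. On the log2 scale, the median change of the 10 genes was 0.89, against -0.04 over all genes tested. As earlier results of these data were known when the genes were chosen, these contrasts with all genes are descriptions only.

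**Figure D1:**
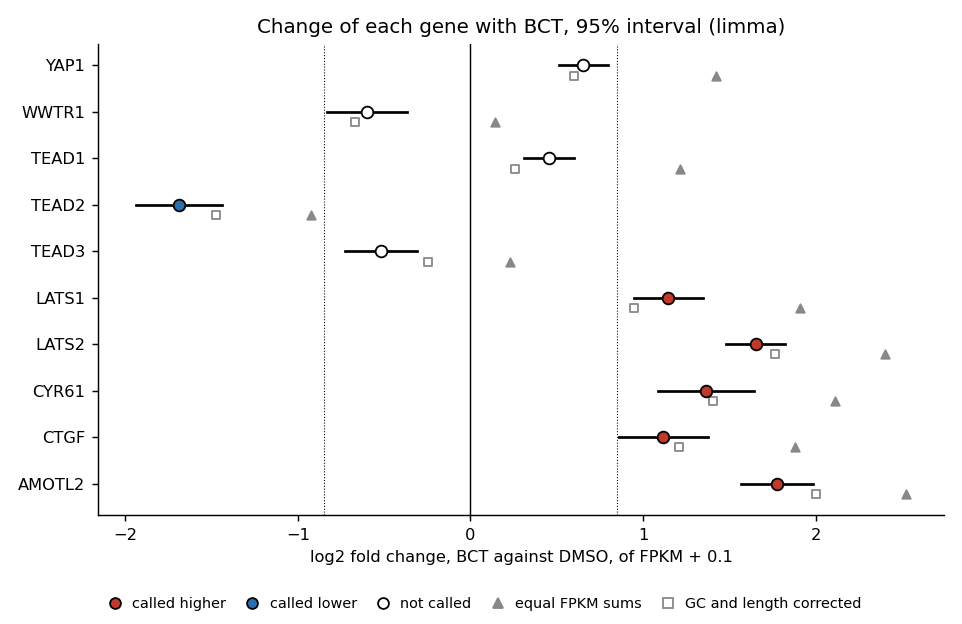
Log2 fold change of each gene with BCT (circles, 3 against 3 samples) with its 95% interval from limma; dotted lines mark the threshold of 0.85. Triangles give the value after rescaling every sample to the same FPKM sum and squares the value after correction for GC content and transcript length; the rescaling moves all genes to the right and turns WWTR1 and TEAD3 to positive values, while TEAD2 stays negative.

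The coactivators, neither of them called, differed in direction in the values as deposited. YAP1 (chromosome 11, 101981192 to 102104154 on hg19) measured 23.5, 23.7 and 22.5 FPKM in the DMSO samples against 33.8, 37.7 and 38.6 FPKM in the BCT samples. Every BCT sample lay above every DMSO sample, and the log2 fold change of 0.65 (95% interval 0.51 to 0.80) stayed under the threshold. WWTR1 (chromosome 3, 149235022 to 149421060) measured 3.48, 3.10 and 3.37 FPKM in the DMSO samples against 2.25, 1.94 and 2.28 FPKM in the BCT samples. Its log2 fold change was -0.60 (95% interval -0.83 to -0.37), again with no overlap between the groups. YAP1 was the more abundant of the pair in all samples, and the ratio of YAP1 to WWTR1 went from 7.03 ± 0.560 with DMSO to 17.1 ± 2.19 with BCT (SD, n = 3 each). Such a ratio within a sample does not depend on how the samples are scaled against each other. Rescaled to equal FPKM sums, YAP1 passed the threshold with a log2 fold change of 1.42, and WWTR1 turned to 0.14. Rescaling by the median log2 ratio left YAP1 at 0.69 and WWTR1 at -0.56.

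Among the TEAD factors, which give the complex its DNA binding, TEAD2 was the most abundant with DMSO and was called lower with BCT, while TEAD1 and TEAD3 were not called. TEAD2 (chromosome 19, 49838677 to 49865714) measured 37.2, 32.6 and 36 FPKM in the DMSO samples against 12.9, 10.1 and 9.72 FPKM in the BCT samples. The 3 BCT samples were far below the 3 DMSO samples, with a log2 fold change of -1.69 (SE 0.11 and limma adjusted p = 2.4e-06). Rescaled to equal FPKM sums, TEAD2 was still called lower, at -0.92, and at -1.30 when MIR6087 was left out of the sum. The listed span of TEAD2 is shared with CD37, a leukocyte gene on the opposite strand, which was at no more than 0.401 FPKM in any sample. GENCODE places TEAD2 at 49843852 to 49865714, so the listed span reaches beyond that gene. TEAD1 (chromosome 11, 12695969 to 12966284) measured 4.91, 5.25 and 4.96 FPKM in the DMSO samples against 6.74, 6.93 and 7.19 FPKM in the BCT samples, all higher but with a log2 fold change of 0.46 (95% interval 0.31 to 0.60), and with equal sums it was called higher at 1.21. TEAD3 (chromosome 6, 35441374 to 35464861) measured 3.80, 4.22 and 3.95 FPKM in the DMSO samples against 3.03, 2.57 and 2.70 FPKM in the BCT samples. Its log2 fold change of -0.52 (95% interval -0.73 to -0.31) did not reach the threshold and was 0.23 after rescaling to equal sums.

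TEAD4, the remaining member of the family, fell from 15.5 ± 0.420 FPKM in DMSO cells to 6.97 ± 0.668 FPKM in BCT cells (SD, n = 3 each). Its log2 fold change was -1.15, a call that was lost after rescaling to equal sums (-0.39), also without MIR6087 (-0.77). Rescaling by the median log2 ratio (-1.11) and quantile normalization (-1.14) kept the call. The summed level of TEAD1 to TEAD4 was 61.0, 58.0 and 60.5 FPKM with DMSO and 30.2, 26.8 and 25.8 FPKM with BCT, so the family as a whole was at 0.46 times its DMSO level in the values as deposited. The makeup of the family shifted as well. TEAD2 made up 56.2% to 61.0% of the sum with DMSO and 37.6% to 42.8% with BCT, while TEAD1 went from between 8.05% and 9.05% to between 22.3% and 27.8%. The share of TEAD3 was 6.68% ± 0.537 with DMSO and 10.0% ± 0.420 with BCT (SD, n = 3 each). The share of TEAD4 overlapped between the groups, at 24.7% to 27.4% with DMSO and 24.1% to 26.6% with BCT. The shares were taken without the correction for GC content and transcript length, which narrowed the TEAD1 rise and the TEAD3 fall. No test was run on these shares, and the smallest p that an exact permutation test with 3 samples per group can give is 0.1.

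**Figure D2:**
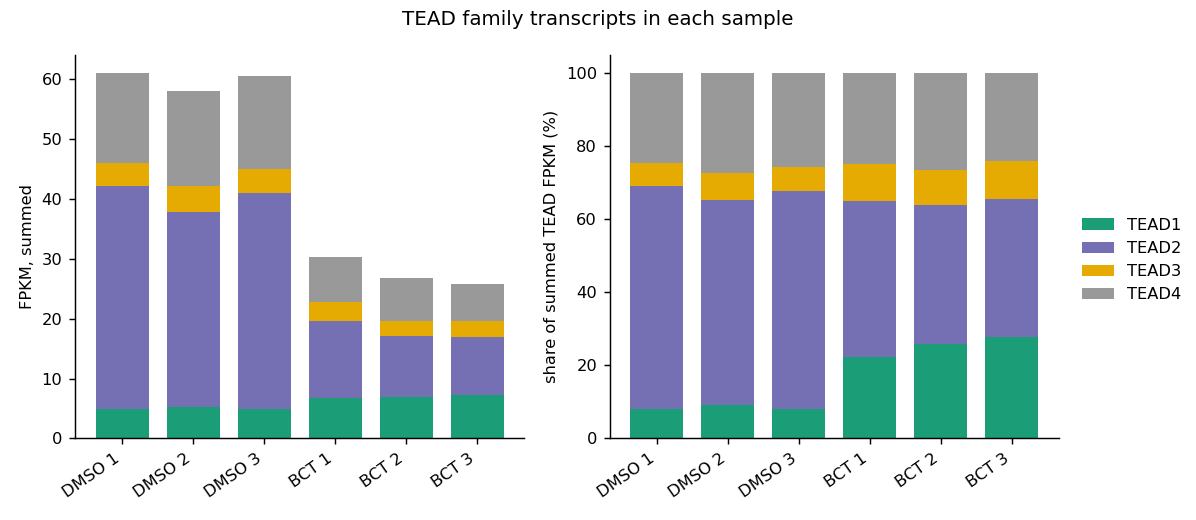
FPKM of TEAD1 to TEAD4 stacked for each of the 6 samples (left) and the same values as a share in percent of their sum in that sample (right). The sum falls from 58.0 to 61.0 FPKM with DMSO to 25.8 to 30.2 FPKM with BCT, the TEAD2 share shrinks and the TEAD1 share grows.

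Both LATS kinases, which phosphorylate YAP and TAZ, rose with BCT. LATS1 (chromosome 6, 149979289 to 150039392) measured 9.65, 11.5 and 10.4 FPKM in the DMSO samples against 21.2, 23.6 and 25.4 FPKM in the BCT samples. The log2 fold change was 1.15 (SE 0.087 and limma adjusted p = 5.4e-06). LATS2 (chromosome 13, 21547176 to 21635722) measured 2.42, 2.53 and 2.38 FPKM in the DMSO samples against 7.35, 8.19 and 8.19 FPKM in the BCT samples. LATS2 had a log2 fold change of 1.65 (SE 0.074 and limma adjusted p = 7.0e-07). LATS1 remained the more abundant kinase, but LATS2 made up 24.4% to 25.8% of the summed LATS transcripts with BCT against 18% to 20.1% with DMSO. Summed, the kinases went from 13.0 ± 1.0 to 31.3 ± 2.56 FPKM (SD, n = 3 each). Their ratio to YAP1, which carries no scaling between samples, was 0.515 to 0.591 with DMSO and 0.844 to 0.871 with BCT.

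The target genes were all called higher. AMOTL2 (chromosome 3, 134074187 to 134094259), which encodes an angiomotin-like scaffold at cell junctions, measured 2.31, 2.12 and 2.23 FPKM in the DMSO samples against 7.06, 8.66 and 7.88 FPKM in the BCT samples. This was the largest change among the 10 genes, with a log2 fold change of 1.78 (SE 0.091 and limma adjusted p = 1.0e-06). CYR61 (chromosome 1, 86046444 to 86049648), a secreted matrix-associated protein, measured 2.17, 1.97 and 2.62 FPKM in the DMSO samples against 5.38, 6.58 and 5.91 FPKM in the BCT samples. CYR61 had a log2 fold change of 1.37 (SE 0.12 and limma adjusted p = 1.2e-05). CTGF (chromosome 6, 132269317 to 132272518), connective tissue growth factor of the same family, measured 10.8, 12.6 and 11.1 FPKM in the DMSO samples against 29.9, 22.5 and 23.4 FPKM in the BCT samples. The highest value was that of BCT replicate 1, and CTGF had the widest spread of the 10 genes with BCT in FPKM, with an SD of 4.05 around 25.3. Its log2 fold change was 1.12 (SE 0.11 and limma adjusted p = 2.4e-05), and 0.99 without BCT replicate 1. The lower bound of its 95% interval was 0.86, close to the threshold, and a test against the threshold itself did not call it (adjusted p = 0.10 from limma's treat). The ratio of CTGF to CYR61 overlapped between the groups, at 4.23 to 6.39 with DMSO and 3.42 to 5.56 with BCT.

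**Figure D3:**
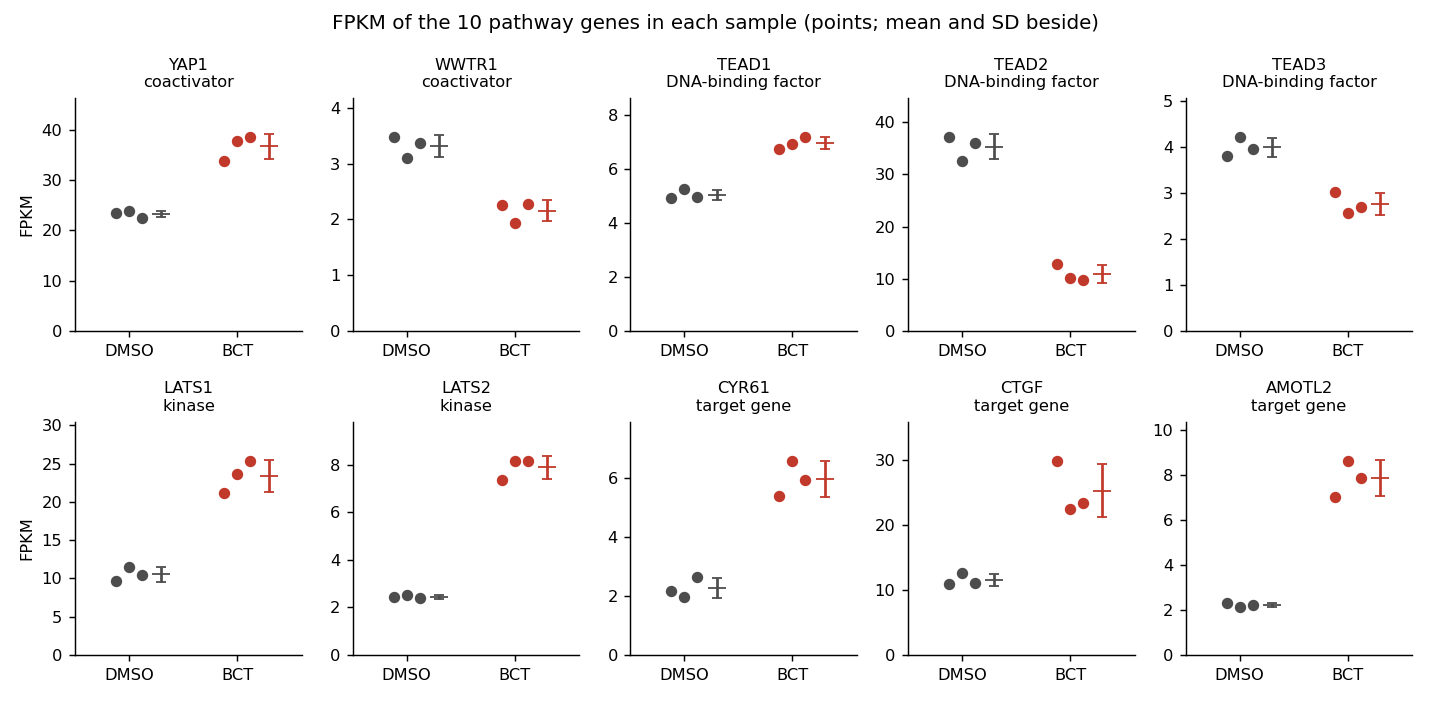
FPKM of each of the 10 genes in the 3 DMSO samples (grey points) and the 3 BCT samples (red points), with the mean and SD beside the points and each vertical axis starting at 0. No gene has a BCT value inside its DMSO range, and TEAD2, WWTR1 and TEAD3 are the genes that lie lower with BCT.

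Per length of transcript, the order of the genes changed between the groups. With DMSO the order ran from TEAD2 (35.2 ± 2.38 FPKM) through YAP1 (23.2 ± 0.651), CTGF (11.5 ± 0.961), LATS1 (10.5 ± 0.938), TEAD1 (5.04 ± 0.183), TEAD3 (3.99 ± 0.211), WWTR1 (3.32 ± 0.198), LATS2 (2.45 ± 0.077) and CYR61 (2.26 ± 0.333) to AMOTL2 (2.22 ± 0.098) (SD, n = 3 each). The sample ranges of CTGF and LATS1 overlapped, as did those of LATS2 with CYR61 and of CYR61 with AMOTL2. With BCT, YAP1 led at 36.7 ± 2.51 FPKM, followed by CTGF and LATS1, whose ranges again overlapped, and TEAD2 came next at 10.9 ± 1.75. LATS2 (7.91 ± 0.480) and AMOTL2 (7.87 ± 0.802) overlapped each other and AMOTL2 overlapped TEAD1 (6.95 ± 0.225), while WWTR1 was the lowest at 2.16 ± 0.188. Set against their DNA-binding partners, YAP1 and WWTR1 together amounted to 0.444 ± 0.018 of the summed TEAD level with DMSO and to 1.42 ± 0.201 of it with BCT (SD, n = 3 each).

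GC content and length differed among the 10 genes. In the longest GENCODE transcript of each gene, GC content ranged from 39.0% in LATS1 to 59.8% in TEAD3, against a median of 47.8% over tested genes. Among the genes that rose, GC content was 39.0% in LATS1, 43.0% in TEAD1, 43.5% in YAP1 and 47.8% in CYR61. It was 51.5% in CTGF, 51.8% in LATS2 and 56.3% in AMOTL2, which rose too. Among the genes that fell, it was 42.2% in WWTR1, 58.4% in TEAD2 and 59.8% in TEAD3. The part of GC content in the changes was not tested. With a correction for GC content and length, the log2 fold change of AMOTL2 was 2.01, that of LATS2 1.77, of CYR61 1.41, of CTGF 1.21, of LATS1 0.95 and of TEAD2 -1.47. All 6 calls were kept, and TEAD3 moved from -0.52 to -0.24 and TEAD1 from 0.46 to 0.26. AMOTL2 shares its listed span with MIR6827, which was at 0 FPKM in all samples. The listed span of WWTR1 is that of its antisense gene WWTR1-AS1 too, which was at 0.206 FPKM or less. The library kit is not stated to keep the strand, so reads of such pairs cannot be told apart by strand where the genes overlap.

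The rest of the pathway was described with 4 further gene lists, which hold 67 genes besides the 10, 53 of them tested. Of these, 6 were called lower and 8 higher, or 26.4%, below the 31.6% of all genes tested, with a median log2 fold change of 0.09. PTPN14 and TGFB2, among the 8, had a mean below 1 FPKM with DMSO and were tested only because of their BCT samples. Without them, a choice made after seeing the data, 6 were called lower and 6 higher, or 23.5%. Among 20 tested Hippo kinases and adaptors, 1 was called lower and 2 higher, or 15%, also below the share of all genes tested. TNIK and MAP4K5, kinases of the MAP4K group, rose from 3.84 ± 0.272 to 9.67 ± 1.17 FPKM and from 12.2 ± 0.271 to 24.9 ± 3.35 FPKM (SD, n = 3 each). The MAP4K5 call was lost in the test against the threshold (adjusted p = 0.25 from limma's treat). MAP4K2 fell from 10.9 ± 0.238 to 5.71 ± 0.765 FPKM. Its log2 fold change of -0.93 dropped below the threshold without BCT replicate 3 (-0.83) and was -0.17 with equal sums and -0.85 after the GC and length correction, where the call was lost too. MAP4K2 also lost its call with 1 added to FPKM instead of 0.1 (-0.84) and without MIR6087 in the sum (-0.55). The test against the threshold did not call it either (adjusted p = 0.74 from limma's treat). The core components STK3 (0.08), STK4 (-0.00), SAV1 (0.08), MOB1A (-0.64), MOB1B (-0.28) and NF2 (-0.26), chosen after their values were seen, had log2 fold changes under the threshold.

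Of 18 tested regulators at junctions and in polarity complexes, 3 were called higher and 2 lower, or 27.8%, below the 31.6% of all genes tested. Their median log2 fold change was 0.21, against -0.04 over all genes tested. Without PTPN14, 2 were called in each direction, or 23.5%, with a median of 0.09. RASSF1, a scaffold that binds the Hippo kinases, rose from 20.2 ± 0.425 to 101.3 ± 11.2 FPKM, or by 2.31 on the log2 scale (SE 0.077). PTPN14, a phosphatase that holds YAP in the cytoplasm, rose from 0.928 ± 0.080 to 3.61 ± 0.314 FPKM. The atypical cadherin FAT1 was called higher at 0.90, a call lost without DMSO replicate 1 (0.75) and after the GC and length correction (0.65). FAT1 also lost it with 1 added to FPKM instead of 0.1 (0.81) and in the test against the threshold. LLGL1, a basolateral polarity gene, fell from 16.9 ± 0.660 to 5.38 ± 1.15 FPKM, and AMOT, the angiomotin that gives AMOTL2 its name, went from 6.38 ± 0.454 down to 3.10 ± 0.118 FPKM (SD, n = 3 each). The log2 fold change of AMOT was -1.02, a call lost after rescaling to equal sums (-0.27), also without MIR6087 (-0.64). Rescaling by the median log2 ratio kept it (-0.98). The call was lost too with 1 added to FPKM instead of 0.1 (-0.848) and against the threshold (adjusted p = 0.14 from limma's treat). AMOTL2 made up 22.4% ± 1.53 of the summed AMOT, AMOTL1 and AMOTL2 level with DMSO and 63.9% ± 2.82 with BCT. In the list of TEAD cofactors and YAP turnover genes, TEAD4 alone among 5 tested genes was called, or 20%, also below the share of all genes tested. The TEAD competitor VGLL4, chosen after its value was seen, had a log2 fold change of -0.75.

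Not all known YAP and TAZ target genes went the way of CTGF, CYR61 and AMOTL2. Of 18 others on the list, 11 were tested, of which 4 were called higher, 2 were called lower and 5 were not called. That was 54.5% called, against 31.6% of all genes tested, with median log2 fold changes of 0.28 and -0.04. Without TGFB2 and PTPN14, 2 of 9 were called higher and 2 lower, or 44.4%, with a median of 0.18. TGFB2, a growth factor, rose from 0.215 ± 0.051 to 2.52 ± 0.197 FPKM. GADD45A, a stress-response gene, rose from 13.7 ± 0.85 to 55.4 ± 8.63 FPKM, and MYOF, a membrane repair gene, from 2.33 ± 0.355 to 8.79 ± 0.944 FPKM. PTPN14 stands on this list too. IGFBP3, an insulin-like growth factor binding protein, fell from 133.7 ± 14.2 to 33.6 ± 2.77 FPKM, the largest fall on the list (log2 fold change -1.99, SE 0.088). F3, the gene of tissue factor, went down from 8.38 ± 0.325 to 3.37 ± 1.02 FPKM (SD, n = 3 each). The call of F3 was lost with equal sums (-0.57) and in the test against the threshold (adjusted p = 0.065 from limma's treat). The 7 genes that were not tested include ANKRD1 and AXL, often used as YAP readouts and also chosen after their values were seen, which were at no more than 0.248 and 0.206 FPKM in any sample. At these low levels, mean ANKRD1 was 0.066 FPKM with DMSO and 0.227 with BCT, and mean AXL 0.021 and 0.154. With the filter left off, 6 genes of the list were called higher and 2 lower, beside 5428 called of 21543 genes.

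**Figure D4:**
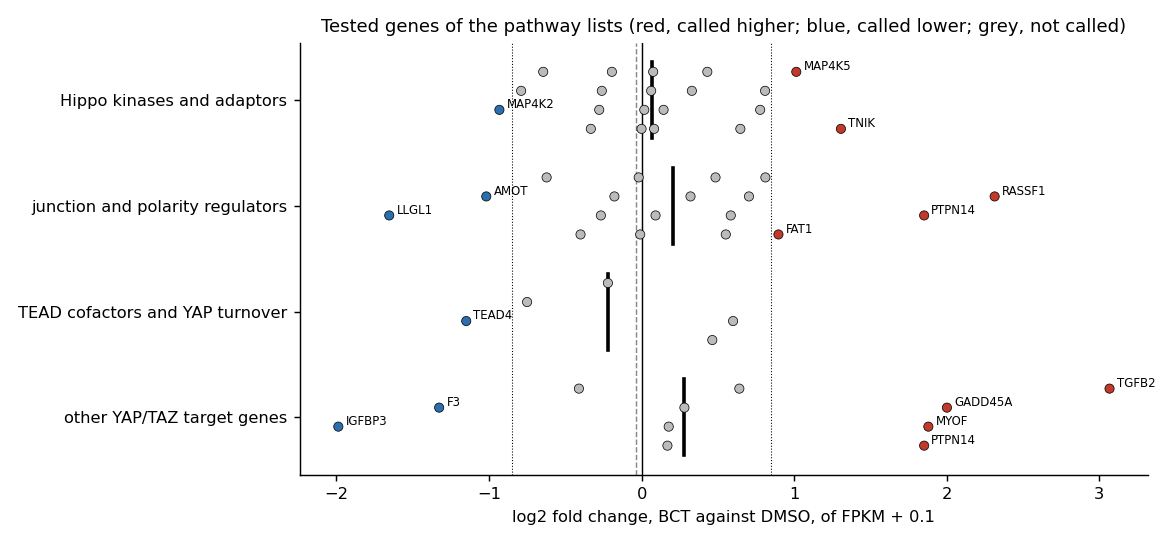
Log2 fold change with BCT of the tested genes in 4 lists of the pathway (points, spread vertically only to separate them), with the list median (thick bar), the median of all genes tested (dashed line) and the threshold of 0.85 (dotted lines). Called genes are named; called genes lie on both sides in 3 of the lists.

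CYR61 and CTGF are secreted by fibroblasts in tissue, so cell type markers were read beside them, and those named here were chosen after their values were seen. All 8 luminal prostate markers had a mean of at least 1 FPKM, and their summed level was 859.0 to 866.5 FPKM with DMSO and 1833 to 2009 FPKM with BCT. They did not move together. The keratins KRT8 and KRT18 rose (log2 fold changes of 1.17 and 1.72) and carried the higher sum, while the other 6 markers summed to 247.0 to 265.6 FPKM with DMSO and 181.3 to 215.1 FPKM with BCT. Among them, KLK3 fell from 8.73 ± 0.911 to 1.05 ± 0.238 FPKM (SD, n = 3 each). The 5 fibroblast markers summed to 2.56 to 2.68 FPKM with DMSO and 5.86 to 7.07 FPKM with BCT. This came from COL1A1, which rose from 1.43 ± 0.175 to 5.83 ± 0.690 FPKM, while COL1A2, DCN and PDGFRB stayed below 0.3 FPKM in all samples and LUM was at 1.01 ± 0.075 and 0.574 ± 0.056 FPKM (SD, n = 3 each). The 3 basal markers and the 3 endothelial markers were below 0.3 FPKM in all samples, and of the 3 leukocyte markers CD68 alone exceeded it, rising from 2.50 ± 0.584 to 6.39 ± 1.63 FPKM. The part of these changes in the values of the 10 genes was not tested.

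Samples were of similar depth, at 0.877 to 1 for DMSO and 1.05 to 1.13 for BCT relative to DMSO replicate 1, as read from the commonest ratio among values of 0.02 to 0.15 FPKM. The number of reads behind a gene is not known from FPKM. The FPKM values summed to 1169650 to 1572320 with DMSO and 757534 to 799838 with BCT, and MIR6087 alone took 31.7% to 55.3% of a sum, so rescaling to equal sums shifts the median change over all genes from -0.04 to 0.72 on the log2 scale. The 5 genes called higher lay above that median and TEAD2, WWTR1 and TEAD3 below it. Rescaling multiplies all genes of a sample by the same factor, so the genes and the median move together. Their places relative to the median are therefore no check on the scaling.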

How the data were processed

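Gene expression was measured by RNA-seq in 3 DMSO and 3 BCT samples of 22RV1 cells. The FPKM values were deposited by the authors, 1 file per sample. For them the study names Trimmomatic (read trimming), HISAT2 (alignment, hg19) and StringTie (assembly). The tools listed from the submitters' processing notes include HTSeq, with no role, but not StringTie. The deposited values were taken to be StringTie FPKM. The annotation is not given in the sources used here. Positions are those of the files, with 1 added to the start, since the start plus 1 equals a GENCODE (GRCh37) transcript start for 8462 genes and the start itself for 914.

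From the deposited FPKM, log2(FPKM + 0.1) was fitted on all 6 samples for 12729 genes (mean of 1 FPKM or more). The fit used limma 3.58.1 under R 4.3.3, with the trend option of eBayes and Benjamini-Hochberg adjustment over all genes tested. The study gives the fold change threshold of 0.85 and FDR thresholds of 0.05 and 0.01; 0.05 was used. FPKM values carry no read counts, so no count test was run. Of these steps, the limma fit and its calls alone were tested on simulated data, without a difference in scaling between samples.

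The 10 genes and all lists were chosen with earlier results of these data known. Named are the 10 genes, the family members TEAD4 and the other CCN genes, and at most 3 called genes per direction from each list; exceptions are stated. GC content and length come from the longest GENCODE transcript, for 97.4% of tested genes, and the correction was a loess fit (span 0.5) per sample. Promoters are RefSeq windows on GRCh38.p14, used for sequence alone. A comparison of protein sequences was planned and not done. Alternatives covered the pseudocount, filter, scaling, FDR, variance model, a test against the threshold, the replicate block and each sample left out; the GC and length correction was added after the data were seen.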

Additional observations from a re-analysis of the deposited data

How the results depend on the processing

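Of 207 results for the 10 genes under 21 alternatives, 201 kept their direction and their side of the threshold. Changes of the filter, the FDR, the variance model, the replicate block and the test against the threshold leave the log2 fold changes themselves as they are. Directions could not change under those alternatives, so the count overstates how far the results were put to the test. Rescaling to equal FPKM sums turned WWTR1 (0.14) and TEAD3 (0.23) to positive values, neither past the threshold, and took YAP1 (1.42) and TEAD1 (1.21) past it; without MIR6087 in the sum, YAP1 again passed (1.04). Rescaling by the median log2 ratio and quantile normalization left all calls and directions of the 10 genes as they were. WWTR1 was at -0.56 and -0.55 there, and TEAD3 at -0.48 and -0.49. Both methods hold the median change over all genes near 0 (-0.001 and 0.03), so they are no check on the scaling either. The test against the threshold lost CTGF (1.12). The filter at a mean of 5 FPKM left 7 of the 10 genes, without WWTR1, TEAD3 and CYR61. Leaving out each sample in turn changed no call of the 10 genes, with log2 fold changes of 1.70 to 1.85 for AMOTL2, 0.99 to 1.19 for CTGF, 1.28 to 1.48 for CYR61, 1.09 to 1.22 for LATS1, 1.63 to 1.70 for LATS2 and -1.81 to -1.61 for TEAD2. The total of 4027 called genes (2263 lower, 1764 higher) became 6282 (668 lower, 5614 higher) with equal sums and 2425 (1392 lower, 1033 higher) in the test against the threshold, and the lower and higher genes numbered 1208 and 3370 with equal sums without MIR6087. Testing every gene gave 2657 higher genes, and the filter at 5 FPKM gave 1150. The pathway lists, with 6 lower and 8 higher, had 2 lower and 27 higher with equal sums, 3 lower and 18 higher without MIR6087 and 3 lower in the test against the threshold. The share of lower genes among those called was 56.2% as deposited, 10.6% with equal sums and 26.4% without MIR6087. Replicate numbers 1 to 3 occur in both groups. The deviations of same-numbered samples correlated at 0.116, 0.033 and 0.034, and those of differently numbered samples at -0.115 to 0.074. The labels state no pairing, and the numbers were not taken as pairs. With the replicate block, 4033 genes were called and no call of the 10 genes changed, also with the GC and length correction (3717 genes). The cause of these changes was not tested. Among 14 called genes named from the lists, 21 of 291 results lost the call and 0 reversed. All 14 kept it with rescaling by the median log2 ratio and with quantile normalization.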

Other observations

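Besides CYR61 and CTGF, NOV alone was tested among the CCN family of secreted matrix proteins. It was at 2.90 ± 0.346 FPKM with DMSO and 2.45 ± 0.129 FPKM with BCT (SD, n = 3 each). The log2 fold change of NOV was -0.23, and its 95% interval ran from -0.48 to 0.02. WISP1, WISP2 and WISP3 were not tested, as their means were below 1 FPKM. Their highest values in any sample were 0.016, 0.272 and 0.178 FPKM.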
